A study of Mus musculus with 24 samples.

Results

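Collagens and laminins are the main structural proteins of the extracellular matrix, and their genes were followed here through RNA, open chromatin and the RNA mark N6-methyladenosine (m6A) in mouse melanoma cells, and through RNA in the T cells that met those cells. Members were all genes whose symbol is Col or Lam followed by the chain number, in both RNA count tables: 55 of 24421 genes, of which 44 were collagens and 11 were laminins. The family was picked because Col9a1 and Col4a1 were low in shFto tumour cells and Col12a1 appeared in T cell libraries beside them, so the family was selected on its RNA levels in shFto against shNC comparisons of both tables, and those differences are given as a description: calls past the threshold are counted there, but they are no independent test of the members. The tested measures are the difference between T cells beside the separate shFto lines and the number of open chromatin peaks.

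B16-OVA is a C57BL/6 mouse melanoma line that carries ovalbumin. Tumour cells with a short hairpin RNA against Fto (shFto), the enzyme that removes m6A from RNA, were compared with cells carrying a control hairpin (shNC), with 3 RNA-seq and 3 ATAC-seq libraries of each. Both kinds of cell were grown with puromycin, and the labels of these libraries do not say which shFto line was used. CD8 T cells from OT-I mice, which carry a transgenic receptor for ovalbumin, were sorted after 8 h of co-culture with shFto-1, shFto-2 or shNC tumour cells, with 2 RNA-seq libraries each. For m6A there was 1 antibody library and 1 input each of shFto cells in DMSO, of shNC cells given 5 μM Dac51 for 48 h (Dac51 is a small molecule inhibitor of FTO), and of shNC cells in DMSO. The labels do not state whether the libraries within a group are separate cultures, so p-values here reflect only the spread among these libraries, which may be technical.

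A collagen is a triple helix of 3 alpha chains, and the chains of 1 trimer can come from separate genes. Fibrillar collagens build fibrils, network collagens such as type IV form the sheet of basement membranes, and FACITs (fibril-associated collagens with interrupted triple helices) decorate fibrils. A laminin joins an alpha, a beta and a gamma chain and forms the other sheet of a basement membrane. Fibroblasts, epithelia and endothelia are the best known sources, and tumour cells make part of their own matrix.

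Tumour libraries held 11152404 to 19665589 counts and T cell libraries 2628158 to 13066355, the lowest of them beside shNC cells. Fto itself was at 31.7, 33.5 and 28.2 CPM (read counts scaled to library size) in shFto tumour libraries, against 107, 108 and 91.8 CPM in shNC libraries. All 11 melanoma markers were detected in tumour cells, with summed levels of 18605 to 19201 CPM in shFto and 14896 to 15779 CPM in shNC libraries. Fibroblast markers summed to 125 to 131 CPM in shFto and 124 to 132 CPM in shNC tumour libraries, with Twist2 at 0. Dcn, Lum and Fap never exceeded 4 counts in a tumour library. Within that list Pdpn rose to 45.5 CPM in shFto cells, against 20.4 CPM in shNC cells, while Fbln1 fell to 76.4 CPM in shFto, against 96.7 CPM in shNC cells, and Pdgfra to 1.96 CPM in shFto, against 3.58 CPM in shNC cells (edgeR adjusted p under 0.05), and their part in the members' values was not tested. Of the endothelial markers, 4 of 6 (Cdh5, Tie1, Tek and Emcn) were at 0 in every tumour library.

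In the tumour cells most collagen and laminin genes that could be measured were lower with shFto. Of the 55 members, 27 passed the filter on low counts and are called measured here, and the other 28 never exceeded 17 counts in a library. Among those 27, 20 were lower and 1, Col12a1, was higher at an adjusted p under 0.05 (edgeR quasi-likelihood test, adjusted over 11718 genes); in the same comparison 32.8% of all genes passed, 15.9% as higher and 16.9% as lower. The median log2 fold change of the 27 was -1.05, against -0.003 over all tested genes. Because this contrast chose the family, nothing is read from these counts. The summed level of all 55 members was 592 to 657 CPM in shFto and 860 to 908 CPM in shNC libraries. In bulk libraries, fewer cells that make a transcript and less of it per cell cannot be told apart. The overlap of genes on opposite strands could not be resolved, because the strand setting of the counting is not given in the sources used here.

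**Figure D1:**
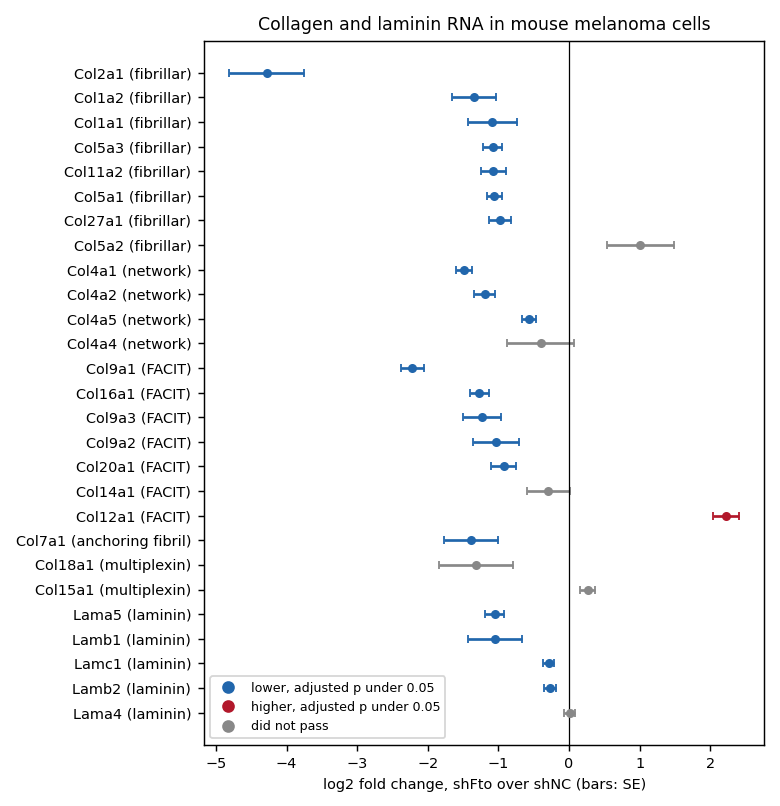
Log2 fold change of shFto over shNC tumour cells with its standard error (x axis) for the 27 members that passed the filter on low counts, ordered by protein class (y axis). Points left of 0 are lower in shFto cells; 20 members are blue, and Col12a1 is the 1 red point.

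The FACIT class held both extremes of the well-counted members. Col9a1, which encodes the alpha1 chain of type IX collagen, was at 4.52, 5.66 and 5.21 CPM in shFto libraries, against 20.3, 22.1 and 28.8 CPM in shNC libraries. The groups did not overlap, and the log2 fold change was -2.22 (SE 0.17). The other chains of the same trimer were lower too, Col9a2 by a log2 fold change of -1.03 (SE 0.32) and Col9a3 by -1.23 (SE 0.27), with Col9a3 overlapping the gene Tcfl5. Col16a1, the chain of type XVI collagen, was at 8.94, 8.80 and 10.2 CPM in shFto libraries, against 23.5, 22.8 and 21.5 CPM in shNC libraries. Its highest shFto library lay below its lowest shNC library, and Col20a1 was likewise lower, with a log2 fold change of -0.93 (SE 0.18).

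Col12a1, the chain of type XII collagen, which binds to the surface of type I collagen fibrils, went the other way. It was at 15.6, 14.2 and 14.2 CPM in shFto libraries, against 3.11, 3.72 and 2.53 CPM in shNC libraries. Every shFto library was above every shNC library, with a log2 fold change of 2.22 (SE 0.19). Col14a1, which encodes a related fibril-binding chain, did not pass, with 1.97, 2.61 and 2.84 CPM in shFto and 3.42, 2.26 and 3.44 CPM in shNC libraries.

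**Figure D2:**
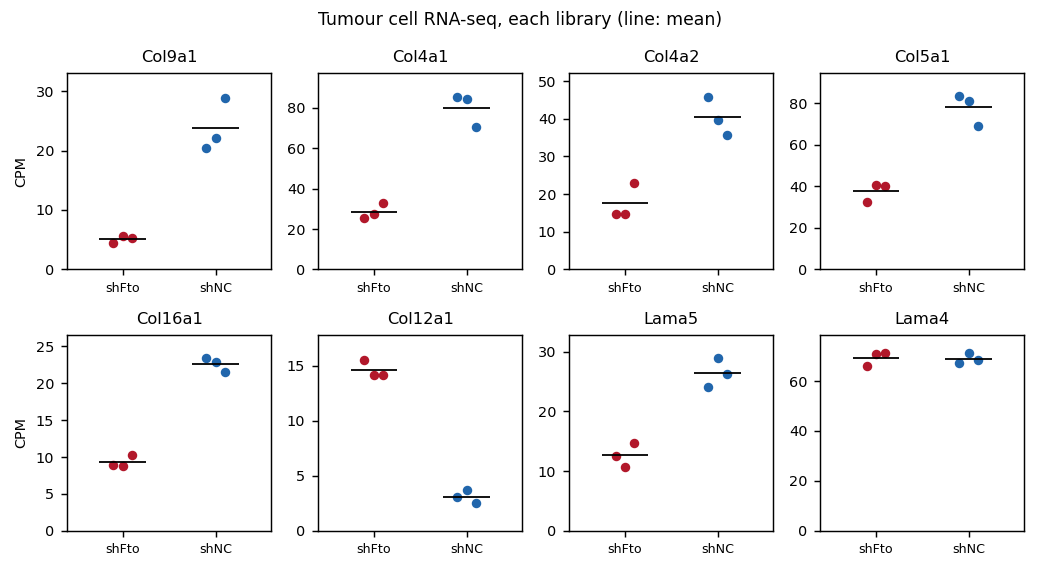
CPM (y axis, from 0) of 8 members in each tumour cell library, shFto (red) and shNC (blue), with lines at the mean of 3 libraries. Col12a1 is higher in every shFto library, Lama4 overlaps between the groups, and the other 6 are lower in every shFto library.

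Type IV collagen, the defining collagen of basement membranes, was lower in each of its 3 best-counted chains. Col4a1 was at 25.5, 27.4 and 32.7 CPM in shFto libraries, against 85.3, 84.3 and 70.4 CPM in shNC libraries. Its partner in the common alpha1/alpha1/alpha2 trimer, Col4a2, was at 14.8, 14.6 and 23.0 CPM in shFto libraries, against 45.8, 39.8 and 35.7 CPM in shNC libraries. Neither gene's groups overlapped, and the log2 fold changes were -1.49 (SE 0.11) and -1.19 (SE 0.15). Col4a5, a chain of the networks of kidney and other specialised basement membranes, was at 35.5, 34.5 and 38.9 CPM in shFto libraries, against 49.0, 55.8 and 56.4 CPM in shNC libraries, a smaller log2 fold change of -0.56 (SE 0.10). Col4a4, at most 1.34 CPM in any library, did not pass.

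Col4a1 and Col4a2 lie head to head on chromosome 8. Their annotated starts are 21 bases apart, and the promoter windows of the pair (250 bases before and 50 after the start, RefSeq, GRCm38.p6, the same coordinates as mm10) share 78 bases, chr8:11312777-11312854. The annotated genes overlap there, so reads of that stretch may have been counted to either. Both windows are shown because these neighbours were lower together. Capitals mark GC boxes (GGGCGG or CCGCCC) and CCAAT boxes (CCAAT or ATTGG); Col4a1 is on the minus strand at chr8:11312777-11313076 and Col4a2 on the plus strand at chr8:11312555-11312854.
Col4a1: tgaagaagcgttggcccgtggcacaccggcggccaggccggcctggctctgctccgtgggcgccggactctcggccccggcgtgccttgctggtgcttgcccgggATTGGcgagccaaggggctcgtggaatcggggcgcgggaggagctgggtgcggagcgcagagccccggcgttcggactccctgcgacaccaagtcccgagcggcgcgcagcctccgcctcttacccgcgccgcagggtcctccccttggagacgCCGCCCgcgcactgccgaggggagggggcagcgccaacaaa
Col4a2: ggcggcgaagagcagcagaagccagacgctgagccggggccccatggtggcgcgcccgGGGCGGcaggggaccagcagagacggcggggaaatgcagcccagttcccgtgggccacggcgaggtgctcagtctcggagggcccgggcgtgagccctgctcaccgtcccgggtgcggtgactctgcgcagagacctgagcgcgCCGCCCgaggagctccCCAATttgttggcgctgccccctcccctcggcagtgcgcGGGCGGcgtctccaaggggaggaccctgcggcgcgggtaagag
The Col4a1 window held 1 GC box and 1 CCAAT box, and the Col4a2 window 3 GC boxes and 1 CCAAT box. The GC box of Col4a1 and the last GC box of Col4a2 are the same site in the shared stretch, read on opposite strands. ATAC-seq lists were cut to the 67427 peaks of the shortest list, as below. In these cut lists a peak lay at this shared start in 1 of 3 shFto libraries and 0 of 3 shNC libraries. That library, shFto replicate 3, had the shortest list and lost no peaks. Whether the cut bears on the difference was not tested.

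The fibrillar class had 7 of its 8 measured members lower and 0 higher. Col5a1, the chain of type V collagen that helps to start fibrils, was at 32.2, 40.5 and 40.0 CPM in shFto libraries, against 83.3, 81.3 and 69.2 CPM in shNC libraries. The groups were apart, with a log2 fold change of -1.06 (SE 0.11), and Col5a3, another type V chain, had -1.08 (SE 0.13). Col5a2, the remaining type V chain, was at 1.70, 1.74 and 1.16 CPM in shFto and 0.683, 0.348 and 1.26 CPM in shNC libraries and did not pass. Col11a2, of type XI collagen, was at 5.53, 8.54 and 6.58 CPM in shFto libraries, against 14.3, 16.1 and 12.4 CPM in shNC libraries. Col27a1, the chain of type XXVII collagen, was at 9.57, 9.59 and 12.7 CPM in shFto libraries, against 19.7, 18.6 and 25.1 CPM in shNC libraries. Both were lower in every shFto library.

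The chains of the major fibrils were counted at low levels. Col2a1, the cartilage collagen, had 5, 4 and 0 counts in shFto libraries, against 52, 59 and 53 counts in shNC libraries. Its log2 fold change of -4.28 (SE 0.53) was the lowest of the 27 and rests on those few counts. For type I collagen, Col1a1 was at 1.60, 1.22 and 1.67 CPM in shFto and 4.17, 2.03 and 3.58 CPM in shNC libraries, and Col1a2 at 1.12, 1.83 and 1.52 CPM in shFto and 3.57, 3.83 and 3.79 CPM in shNC libraries. Col3a1, of the type III collagen of connective tissue, never exceeded 5 counts. Col7a1, the anchoring fibril chain, was lower, with a log2 fold change of -1.39 (SE 0.38). Of the multiplexins, basement membrane collagens, neither passed: Col15a1 was at 41.5, 36.3 and 44.7 CPM in shFto and 32.0, 35.6 and 34.3 CPM in shNC libraries, and Col18a1 never exceeded 1.57 CPM. Col6a2 was among 6 members with 0 counts in every tumour library.

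Among the laminins, 5 of 11 genes were measured and 4 were lower. Lama5, an alpha chain of many adult basement membranes, was at 12.6, 10.6 and 14.7 CPM in shFto libraries, against 24.1, 29.0 and 26.3 CPM in shNC libraries. Its groups did not overlap, with a log2 fold change of -1.05 (SE 0.14). Lama4, an alpha chain best known from vessel walls, was at 66.1, 70.9 and 71.1 CPM in shFto and 67.3, 71.2 and 68.3 CPM in shNC libraries. Those groups overlapped, with a log2 fold change of 0.01 (SE 0.08). Lamc1, the gamma chain of most laminins, was at 232, 212 and 241 CPM in shFto libraries, against 285, 289 and 264 CPM in shNC libraries. Lamb2, a beta chain, was at 63.6, 59.9 and 70.1 CPM in shFto libraries, against 83.2, 75.9 and 75.1 CPM in shNC libraries. These shared chains were lower by log2 fold changes of -0.29 (SE 0.08) and -0.27 (SE 0.09), less in size than that of Lama5. Lamb1, under 3.3 CPM everywhere, had -1.04 (SE 0.38).

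Of the 21 members past the threshold, 15 passed again whichever single library was left out. The other 6 were Lamb1, Col1a1, Col9a2, Lamb2, Lamc1 and Col7a1. The calls lost were Col1a1, Lamb1, Col9a2, Lamb2 and Col7a1 without shFto replicate 1, Col1a1 and Lamb2 without shFto replicate 2, and Lamb1 and Col9a2 without shFto replicate 3. They were Lamc1, Col1a1, Lamb1 and Lamb2 without shNC replicate 1, Lamb1 and Col9a2 without shNC replicate 2, and Col1a1 and Lamb1 without shNC replicate 3.

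The helpers of collagen synthesis are given from lists of known enzymes and partners. For each list in tumour cells, the share of all 11718 tested genes that passed was 32.8%, 15.9% as higher and 16.9% as lower. Of 16 measured folding and modifying enzymes, 7 fell and 3 rose (edgeR adjusted p under 0.05), and their median log2 fold change was -0.16. Serpinh1, the collagen chaperone HSP47, averaged 702 CPM in shFto and 1026 CPM in shNC cells, falling by 0.55 (SE 0.08) on the log2 scale. Colgalt1, which adds galactose to hydroxylysine, fell by 0.41 on the log2 scale (SE 0.08), and P3h3 had a log2 fold change of -0.34 (SE 0.09). Fkbp14 rose by 0.78 (SE 0.18), the lysyl hydroxylase Plod1 by 0.39 (SE 0.09) and P4ha1 by 0.30 (SE 0.11) on that scale.

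Outside the cell, 3 of 6 measured processing and crosslinking genes fell and 0 rose. Pcolce, the enhancer of procollagen C-proteinase, had a log2 fold change of -0.86 (SE 0.08), the crosslinking oxidase Loxl2 -0.72 (SE 0.21) and the C-proteinase Bmp1 -0.49 (SE 0.15). Of 9 measured basement membrane partners, 4 fell and 2 rose. Perlecan (Hspg2) averaged 470 CPM in shFto and 764 CPM in shNC cells, with a log2 fold change of -0.70 (SE 0.10), Agrn had -0.60 (SE 0.09) and Smoc1 -0.50 (SE 0.10). Sparc, a collagen-binding matricellular protein, rose to 927 CPM in shFto cells, against 532 CPM in shNC cells, and Tinagl1 rose by 0.29 (SE 0.08) on the log2 scale. Of 11 measured receptors, Itga6, a laminin receptor subunit, fell by 0.49 (SE 0.08) and Itgb1, the beta subunit shared by collagen and laminin integrins, rose by 0.36 (SE 0.09), and the other 9 did not pass. Of 7 measured proteases and inhibitors, 4 fell and 1 rose, with log2 fold changes of -2.44 (SE 0.56) for Mmp15, -0.58 (SE 0.08) for Timp2, -0.56 (SE 0.13) for Timp3 and 0.36 (SE 0.08) for the lysosomal protease Ctsb.

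In T cell libraries the member that stood out was Col12a1. It had 293 and 109 counts beside shFto-1 cells, 103 and 103 counts beside shFto-2 cells, and 0 and 0 counts beside shNC cells. In libraries named by their tumour line, that is 23.7 and 21.5 CPM (shFto-1), 11.6 and 16.4 CPM (shFto-2) and 0 CPM (shNC). Taking 3 counts, over the pair of shNC libraries together, as the floor, Col12a1 was at least 76.7-fold higher in the shFto-1 co-cultures and at least 45.1-fold higher in those with shFto-2, bounds that cover counting error only. Of 28 members that passed the filter, Col12a1 was the 1 past the threshold against shNC for the mean of the lines, for shFto-1 and for shFto-2, where 32.9%, 22.2% and 33.7% of 12824 genes passed in all, 20.3%, 15.4% and 20.4% as higher and 12.7%, 6.84% and 13.3% as lower. These comparisons share their shNC libraries, and they were part of the choice of the family.

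Between the T cells beside the separate shFto lines, a comparison that the choice did not use, 0 of 28 members passed (edgeR quasi-likelihood test), 1 had an unadjusted p under 0.05, and DESeq2 called 0. In this comparison 1.91% of all tested genes passed, 0.491% as higher and 1.42% as lower. Col12a1, the member with the unadjusted p under 0.05, had a log2 fold change of -0.71 for shFto-2 minus shFto-1 (SE 0.25, adjusted p = 0.20), with both shFto-2 libraries below both shFto-1 libraries. Lama4 was at 11.2 and 12.9 CPM (shFto-2) and 18.9 and 16.9 CPM (shFto-1), with an adjusted p of 0.38.

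**Figure D3:**
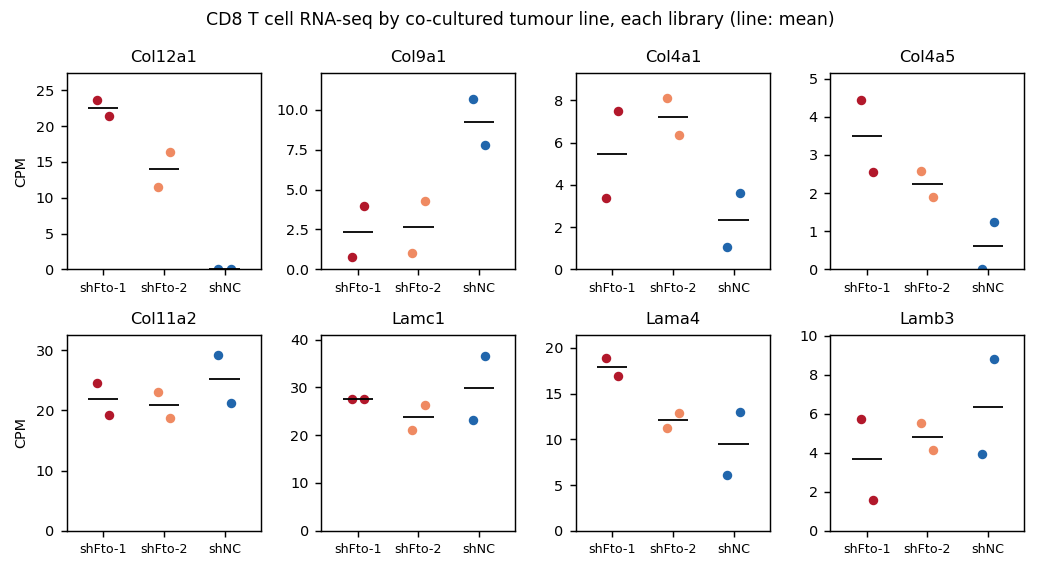
CPM (y axis, from 0) of 8 members in each T cell library, by the tumour line in the co-culture, shFto-1 (red), shFto-2 (orange) and shNC (blue), with lines at the mean of 2 libraries. Col12a1 is at 0 CPM in both libraries beside shNC cells and at 11.6 to 23.7 CPM in the other 4.

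Other members were counted in T cell libraries without passing in the fit reported here. Col9a1 was at 0.809 and 3.94 CPM (shFto-1), 1.01 and 4.30 CPM (shFto-2) and 10.7 and 7.81 CPM (shNC). All 4 libraries beside shFto lines lay below those beside shNC, with a log2 fold change of -1.91 (SE 0.75) for the mean of the lines; for that mean it did pass with no filter and with DESeq2. Col4a1 was at 3.40 and 7.48 CPM (shFto-1), 8.08 and 6.36 CPM (shFto-2) and 1.07 and 3.63 CPM (shNC), so that the groups overlapped. Lamc1 was at 27.6 and 27.6 CPM (shFto-1), 21.0 and 26.4 CPM (shFto-2) and 23.1 and 36.5 CPM (shNC). Col11a2 was at 24.5 and 19.3 CPM (shFto-1), 23.1 and 18.8 CPM (shFto-2) and 29.1 and 21.2 CPM (shNC). Lamb3, a chain of the epithelial laminin 332, had 71 and 8 counts beside shFto-1, 49 and 26 beside shFto-2, and 11 and 63 beside shNC cells, and 0 counts in every tumour library.

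Low members were uneven between libraries of the same group. In 13 of the 28, some pair of libraries had 0 counts in one and at least 5 in the other. Col27a1 had 0 and 53 counts beside shFto-1, 0 and 29 beside shFto-2, and 11 and 0 beside shNC cells. Col15a1 was at 9.15 and 8.86 CPM (shFto-1), 7.18 and 11.5 CPM (shFto-2) and 1.78 and 17.4 CPM (shNC), so the direction of its difference depended on 1 shNC library.

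Tumour cell transcripts were present in the sorted T cell libraries. The 11 melanoma markers summed to 1302 to 1498 CPM beside shFto lines and 987 to 1254 CPM beside shNC cells, and all 11 were detected in each library except that Oca2 was at 0 in 1 beside shNC. The 9 T cell markers summed to 1478 to 2062 CPM beside shFto lines and 2280 to 2493 CPM beside shNC cells. Fibroblast markers summed to 7.09 to 19.3 CPM beside shFto lines and 18.1 to 22.3 CPM beside shNC cells, and endothelial markers, mostly Pecam1, to 36.4 to 76.2 CPM beside shFto lines and 119 to 159 CPM beside shNC cells.

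With libraries beside either shFto line set against shFto tumour cells, whose line the labels do not give, and those beside shNC against shNC tumour cells, in tables that were scaled separately, the melanoma markers in T cell libraries were at 3.31% to 11.8% of their tumour level beside shFto lines and at 1.40% to 29.7% beside shNC cells. The marker median was 6.93% beside shFto lines and 10.6% beside shNC cells. For 15 members with at least 10 CPM in a tumour group, Col12a1 left out, the median was 21.6% and 10.7%. Of these, Col9a1, Col11a2, Col16a1 and Col20a1 averaged at least 10 CPM only in shNC tumour cells. Their percents beside shFto lines are divided by the lower shFto tumour level, which was part of the choice of the family. The member medians are therefore a description and no comparison with the markers. Lamc1 lay in the marker range, at 11.2% beside shFto lines and 10.7% beside shNC cells, as did Lamb2 at 9.79% and 8.47%. Col12a1 was at 125% of its tumour level beside shFto lines and at 0% beside shNC cells, where the tumour cells themselves had 3.12 CPM. Col11a2 was at 311% beside shFto lines and 177% beside shNC cells, and Col20a1 at 129% beside shFto lines and 48.8% beside shNC cells. In the T cell libraries themselves Col11a2 averaged 21.4 CPM beside shFto lines and 25.2 CPM beside shNC cells. Col20a1 averaged 7.24 CPM beside shFto lines and 5.21 CPM beside shNC cells. What part tumour RNA has in the members' T cell values was not tested.

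**Figure D4:**
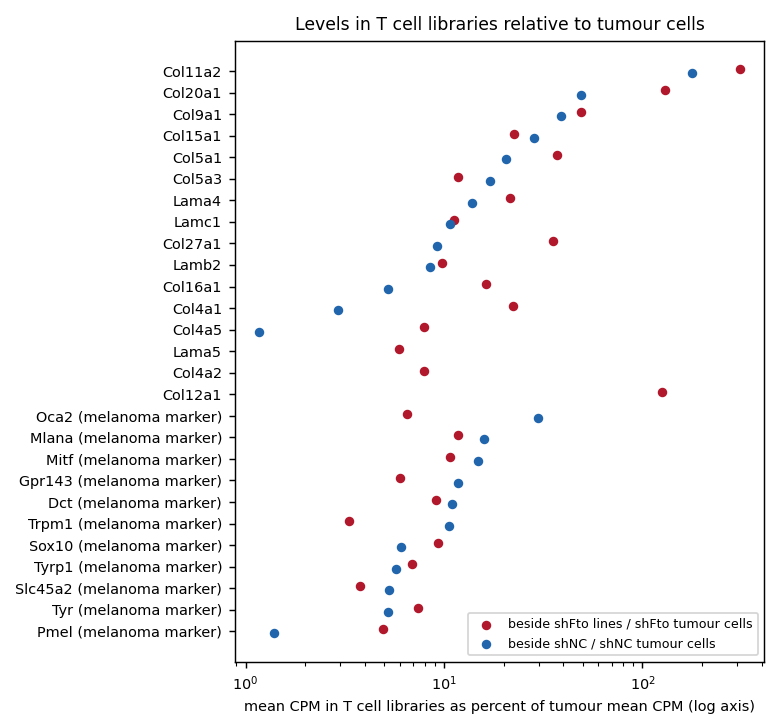
Mean CPM in T cell libraries as a percent of mean CPM in tumour cells (x axis, log scale), beside both shFto lines over shFto tumour cells (red) and beside shNC over shNC tumour cells (blue), for 16 members with at least 10 CPM in a tumour group and for 11 melanoma markers. Col12a1, Col4a2 and Lama5 have no blue point because they were at 0 beside shNC cells. Col11a2, Col20a1 and Col12a1 lie above 100% beside shFto lines. Col9a1, Col11a2, Col16a1 and Col20a1 averaged at least 10 CPM only in shNC tumour cells.

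Receptors and helpers were also counted in the T cell libraries. Of 16 measured folding enzymes, 5 rose and 1 fell for the mean of the shFto lines (edgeR adjusted p under 0.05). In that comparison 32.9% of all 12824 tested genes passed, 20.3% as higher and 12.7% as lower. P4hb, the protein disulfide isomerase that is also a prolyl hydroxylase subunit, averaged 705 CPM in libraries from shFto-1 co-cultures and 771 CPM in those from shFto-2, against 455 CPM in those from shNC. Colgalt1 rose by 0.89 (SE 0.13) and P3h2 by 1.39 (SE 0.26) on the log2 scale, and Serpinh1 fell by 0.40 (SE 0.12). Of 11 receptors, 3 rose and 2 fell. The collagen receptor Ddr1 rose by 0.66 (SE 0.12) and Itgb1 by 0.43 (SE 0.10), Itga6 fell by 1.09 (SE 0.12) and Dag1, dystroglycan, by 0.38 (SE 0.10), and Bcam, a laminin receptor, was at 1.38 and 1.77 CPM (shFto-1), 2.81 and 4.45 CPM (shFto-2) and 0 CPM (shNC). Of 9 basement membrane partners, Sparc rose, with a log2 fold change of 0.75 (SE 0.14), and 0 fell. Of 6 processing genes and 6 proteases and inhibitors, 0 passed in this edgeR test, with 0 and 3 at an unadjusted p under 0.05. The melanoma marker sums given above moved in the same libraries, and their part in these values was not tested.

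ATAC-seq cuts open chromatin with a transposase, and the deposited lists give the peaks of each library. With every list cut to the 67427 peaks of the shortest, the member genes and 5 kb at each end held 277, 279 and 280 peaks in shFto libraries, against 290, 283 and 293 peaks in shNC libraries. The groups did not overlap, at 278.7 ± 1.5 and 288.7 ± 5.1 peaks (SD, n = 3 each), a difference of -10.0 with an exact two-sided permutation p of 0.10, the smallest that 3 against 3 can give. As a share of the deposited lists, before cutting, member peaks were 0.415% ± 0.006 in shFto and 0.434% ± 0.005 in shNC libraries (SD, n = 3 each).

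In the lists cut to equal length, used for all starts here, fewer measured members had a peak at their start than measured genes in general. This difference was not tested, and the genes were not matched for RNA level. Promoter windows were in the RefSeq table for 40 of 55 members, with 44 windows. Col12a1, Col1a1, Col2a1, Col9a3, Lama4 and Lamc1 were among the members without a window, so their starts were not examined. The start had a peak in all 6 libraries for Col16a1, Col23a1, Col27a1, Col4a5, Col5a1, Col5a3, Col6a2, Lama5 and Lamb2. Of these 9, 7 were measured in tumour RNA and were lower in shFto cells. They are 7 of the 19 measured members with a window, against 88.8% of 8949 measured genes. Of the other 9 lower members with a window, 6 had a peak in no library and 3 in some. Among members with a peak in all 6 libraries, Col23a1 never exceeded 4 counts, and Col6a2 had a listed peak at its start but 0 counts. At Col5a1 the authors' fold enrichment of the peak was 10.2, 10.5 and 9.07 in shFto libraries, and 9.13, 8.32 and 10.6 in shNC libraries. At Lama5 it was 12.4, 11.6 and 10.4 in shFto libraries, and 11.8, 12.3 and 9.23 in shNC libraries, so that both groups overlapped at both starts. At Col7a1 a peak was listed in 2 of 3 shFto and 3 of 3 shNC libraries. At both starts of Col9a1, and at Col11a2, Col1a2, Col20a1, Col9a2 and Lamb1, all lower in RNA, a peak was listed in 0 of 3 shFto and 0 of 3 shNC libraries.

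The windows of Col5a1 (plus strand, chr2:27886175-27886474), Lama5 (minus strand, chr2:180225810-180226109) and the downstream start of Col9a1 (plus strand, chr1:24194953-24195252) are shown because Col5a1 and Lama5 had a peak in every library and Col9a1 had none. Capitals mark the same GC and CCAAT boxes.
Col5a1: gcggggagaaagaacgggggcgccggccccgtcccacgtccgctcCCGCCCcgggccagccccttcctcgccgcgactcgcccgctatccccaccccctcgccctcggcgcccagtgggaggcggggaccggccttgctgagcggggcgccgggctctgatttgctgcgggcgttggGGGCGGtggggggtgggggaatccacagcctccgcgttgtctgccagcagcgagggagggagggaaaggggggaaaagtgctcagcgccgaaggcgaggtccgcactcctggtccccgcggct
Lama5: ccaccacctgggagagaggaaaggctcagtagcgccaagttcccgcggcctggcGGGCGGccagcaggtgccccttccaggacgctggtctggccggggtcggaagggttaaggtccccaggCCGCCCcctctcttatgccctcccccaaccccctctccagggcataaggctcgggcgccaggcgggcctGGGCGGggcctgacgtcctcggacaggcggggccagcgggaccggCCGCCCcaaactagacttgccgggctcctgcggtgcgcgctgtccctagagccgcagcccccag
Col9a1: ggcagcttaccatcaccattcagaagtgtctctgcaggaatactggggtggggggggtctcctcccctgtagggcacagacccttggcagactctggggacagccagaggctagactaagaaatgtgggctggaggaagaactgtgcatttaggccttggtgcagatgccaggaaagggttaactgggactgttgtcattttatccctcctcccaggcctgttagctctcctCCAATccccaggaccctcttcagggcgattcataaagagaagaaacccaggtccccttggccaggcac
Col5a1 held 2 GC boxes in 75.0% G and C, Lama5 held 4 in 72.7%, and this Col9a1 window held 0 GC boxes and 1 CCAAT box in 55.7%. Searched on both strands, GGGCGG was in 59.1% of the member windows and 35.7% of all 32851 windows, CCAAT in 31.8% and 37.4%, and TATAAA in 11.4% and 13.6%. CACGTG, the E-box read by MITF and USF, was in 0 of 44 member windows and 7.15% of all windows, and TGACTCA, the AP-1 site, was in 1, that of Col6a1, and in 5.20% of all windows. These matches describe letters in the windows, not binding.

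Inside the member loci 376 merged regions were found in the cut lists. Of these, 5 had a peak in all 3 shFto libraries and none of shNC (1.33%, against 0.879% of 88084 regions genome-wide), and 8 had a peak in all 3 shNC libraries and none of shFto (2.13%, against 1.66% genome-wide). The shFto-only regions were in Col12a1, Col22a1, Col24a1, Col28a1 and Col6a6. That of Col12a1, chr9:79634232-79634520 (mm10), lies within the gene and had fold enrichments of 7.08, 8.31 and 4.45 in shFto libraries, as the authors give them. The shNC-only regions included 1 each in Col15a1, Col27a1, Col4a2, Lama2, Lama5 and Lamb1. That of Col4a2, at chr8:11363354-11363649 inside the gene, had fold enrichments of 11.4, 6.41 and 9.20 in shNC libraries.

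Counted by locus, Lama5 had 8, 8 and 7 peaks in shFto libraries, against 10, 10 and 10 peaks in shNC libraries. Col27a1 had 13, 13 and 13 peaks in shFto libraries, against 16, 16 and 15 peaks in shNC libraries. Col15a1 and Lama3 also had fewer peaks in every shFto library. In all, 5 of 55 members did, against 2.69% of 16567 protein-coding genes with a peak, and 0 members had more in every shFto library, against 2.19%. Col6a4, among the 55, had no peak in any library. The genes were not matched for length or number of peaks, and the difference in shares was not tested. Col12a1 had 5, 6 and 5 peaks in shFto and 4, 5 and 4 peaks in shNC libraries, and Col9a1 11, 8 and 8 peaks in shFto and 8, 7 and 8 peaks in shNC libraries, with overlap in both.

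**Figure D5:**
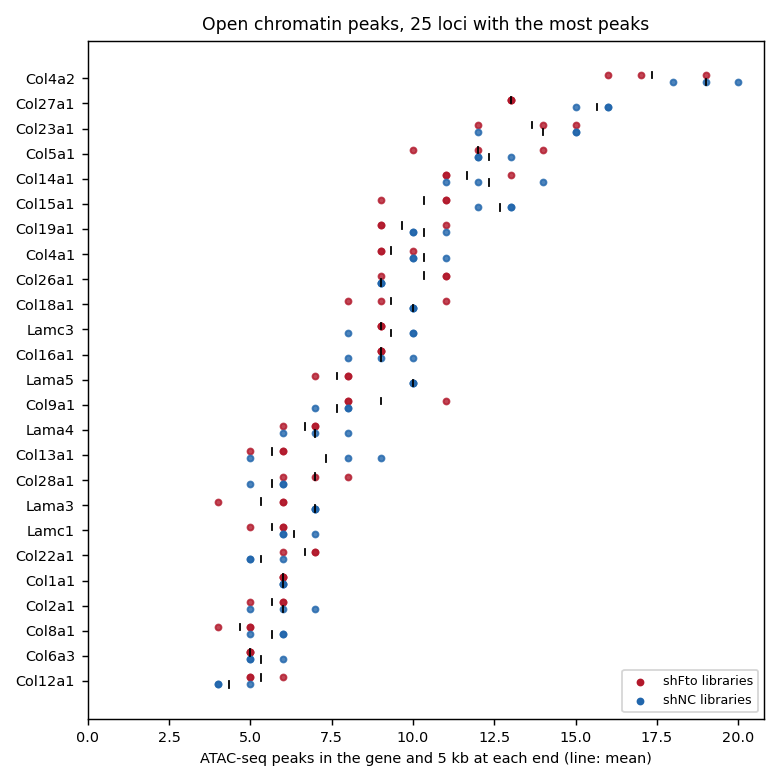
Number of ATAC-seq peaks in the gene and 5 kb at each end (x axis) for the 25 member loci with the most peaks (y axis), 3 shFto libraries (red) and 3 shNC libraries (blue), with lines at the mean; points of equal value lie on top of each other. Lama5 and Col27a1 have fewer peaks in every shFto library, and Col9a1 and Col12a1 overlap.

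Few members carried an m6A peak. With 1 list per condition and no replicate there is no test, and the fold enrichments of antibody over input are the authors' values. A peak was listed for 6 members in shFto cells, 5 in Dac51-treated shNC cells and 4 in shNC cells. Of the 27 members measured in tumour RNA these were 4 (14.8%), 5 (18.5%) and 3 (11.1%), against 53.6%, 49.9% and 44.2% of all 11718 measured genes. The genes were not matched for RNA level, and several of the 27 had few counts. Whether members differ from genes of like level was not tested.

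Lamc1, Col5a1 and Col27a1 had a peak in all 3 lists. At Lamc1 the fold enrichment was 4.15 in shFto, 5.84 in Dac51-treated and 3.22 in shNC cells, and the peak covered 628, 658 and 270 exonic bases in that order. At Col5a1 (chr2:28036939-28037357 in shFto cells, mm10) it was 10.3 in shFto, 7.08 in Dac51-treated and 6.17 in shNC cells. At Col27a1 it was 7.03 in shFto, 14.8 in Dac51-treated and 7.50 in shNC cells. The shNC value was the lowest of the lists at Lamc1 and Col5a1, and not at Col27a1.

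Col4a5 had a peak of 3.07 fold in shFto and 3.23 fold in Dac51-treated cells and none listed in shNC cells. Among measured genes with no shNC peak, 20.9% had one in the shFto list and 16.0% in the Dac51 list. Col16a1 had a peak in the Dac51 list alone (5.91 fold), Col10a1 in the shFto list alone (6.86 fold, at p = 0.0019 in the authors' list, on RNA of at most 17 counts a library) and Col8a1 in shFto (12.0 fold) and shNC cells (50.0 fold). For Col9a1, Col4a1, Col4a2 and Col12a1, members on which the choice of the family or its RNA results turn, no m6A peak was in any of the 3 lists.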

How the data were processed

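The authors deposited raw read counts per gene symbol for RNA-seq, and per library ATAC-seq peak lists with a fold enrichment ratio, −log10 p and q and a score. Each peak of the deposited m6A lists has the ratio of antibody to input (fold enrichment), the authors' p-value, and this p and its false discovery rate as log10 scores. Per the submitters' processing notes the tools were STAR 2.7.0f, Bowtie2 2.3.5, MACS2 2.1.3, Trim Galore 0.6.0, Picard and deepTools, with build mm10 and no role for each; the counting tool, its strand setting and the annotation are not given in the sources used here.

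Counts were tested with edgeR 4.0.16 (R 4.3.3; TMM scaling, default expression filter, quasi-likelihood F test), Benjamini-Hochberg adjusted over all tested genes, with a threshold of 0.05, for the tumour and T cell tables apart. CPM are TMM-scaled. ATAC-seq peaks overlapping by 1 bp were merged over libraries and assigned to loci by RefSeq coordinates of GRCm38.p6 (all 55 members matched), and peak numbers were compared by exact permutation (SciPy 1.17.1). The scripts were tested on simulated data. Members, classes, partner and marker lists were chosen with earlier results of these data known. Some results of the family are not reported here. Partner genes are named by a rule, up to 3 per list, direction and comparison with the smallest adjusted p. Alternatives were other scalings, no filter, DESeq2 1.42.0, a replicate block, leaving out each library, and other peak thresholds and overlaps. Intervals and floors cover counting error only.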

Additional observations from a re-analysis of the deposited data

Results flagged for a closer look

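Col4a5 values lay in opposite directions in the tumour cell and T cell libraries, but it did not pass the threshold in T cells. It was picked from the 18 members measured in both tables because its groups were apart in opposite directions. The share of all genes that meet this rule was not counted. It was at 35.5, 34.5 and 38.9 CPM in shFto tumour libraries, against 49.0, 55.8 and 56.4 CPM in shNC tumour libraries, a log2 fold change of -0.56. In T cell libraries it was at 4.45 and 2.56 CPM (shFto-1), 2.58 and 1.91 CPM (shFto-2) and 0 and 1.25 CPM (shNC), a log2 fold change of 1.94 for the mean of the shFto lines (SE 1.20). Every library of each shFto group lay on 1 side of its shNC libraries, and the difference between the tables was not tested. The T cell values rest on 55 and 13, 23 and 12, and 0 and 9 counts in the same order of groups.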

How the results depend on the processing

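In tumour cells the count of members past the threshold was 21 as reported, 20 with DESeq2, 21 with RLE size factors, library totals, no filter or the replicate block, and 16 to 21 with 1 library left out. Library totals turned the split of all calls to 60.0% higher, from 48.5%, and 20 of the 21 member calls were shared. In T cells, for the mean of the shFto lines, the count of 1 became 2 with library totals, 4 with no filter, 4 with DESeq2 and 2 with the replicate block, and lay between 2 and 3 with 1 library left out. For shFto-1 the count of 1 became 2 with no filter and 4 with DESeq2, and lay between 1 and 3 with 1 library left out; for shFto-2 it lay between 1 and 3. Col12a1 was called in all of these fits. The added calls were Col9a1, Col6a2 and Lamb1, lower, with no filter or DESeq2. With 1 library left out, a lone library is assumed to vary like the other groups; for the mean of the lines the added calls were Col7a1 (shFto-1 replicate 1 left out), Col9a1 (shFto-1 replicate 2), Col6a2 (shFto-2 replicate 1), Col9a1 and Lamb1 (shFto-2 replicate 2), Lamc1 and Col15a1 (shNC replicate 1), and Lama4 and Col15a1 (shNC replicate 2). Without shNC replicate 2, Col15a1 was reversed, with log2 fold changes of 2.38 for the mean of the lines, 2.36 with shFto-1 and 2.40 with shFto-2, against -0.96, -0.97 and -0.96 without shNC replicate 1, and the cause was not tested. Library totals moved the median log2 fold change of all T cell genes by over 0.1, to -0.18 (mean of the lines), -0.15 (shFto-1) and -0.20 (shFto-2), and the share of higher calls to 42.8%, 45.7% and 44.8%, from 61.5%, 69.3% and 60.5%. Between the shFto lines 0 members passed in every fit, while calls over all genes went from 245 to 976 with DESeq2 and to 1 without shFto-1 replicate 1.

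The numbers of the replicates are shared between groups. The deviations of same-numbered libraries correlated at -0.02 to 0.04 in tumour cells and -0.32 to 0.37 in T cells. Same-numbered libraries were not taken as pairs. With 2 T cell libraries a group, swapping the numbers only flips the sign of this correlation. It therefore cannot show whether T cell libraries were paired. Under the replicate block, Col9a1 passed in T cells for the mean of the lines (log2 fold change -2.34). Between the shFto lines the block moved calls over all genes from 245 to 446, with 0 members called. For ATAC-seq, the difference in member peaks was -48.0 with deposited lists, -36.0 at −log10 q of at least 5, -9.33 without flanks and -12.8 to -7.83 with 1 library left out. The 5 shFto-only and 8 shNC-only regions became 1 and 14 with deposited lists, and 0 and 12 at −log10 q of at least 5. With deposited lists these were 0.230% and 3.23% of member regions, against 0.356% and 2.53% of all regions. At −log10 q of at least 5 they were 0% and 3.02%, against 0.381% and 2.28% of all regions. Lists were not cut to equal length in either setting. Members with an m6A peak were 5, 5 and 4 (shFto, Dac51, shNC) at a fold of at least 2 and a false discovery rate under 0.01. Members with few counts are the least certain.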
